A study of Homo sapiens with 4 samples.

Results

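The genes described here encode the nuclear pore complex and the factors that carry cargo through it. They were the genes with a probe set of their own on the array whose symbol begins with NUP, KPNA, KPNB or IPO and a digit, the exportins XPO1 to XPO7, and a fixed set of named partners (TPR, the Ran cycle proteins, SEH1L, AAAS, NDC1, RAE1, CSE1L and the transportins). Of 18377 genes on the array 56 were members, and 51 of these were among the 11026 genes bright enough to be tested. RNA came from OPM2, an established human multiple myeloma line, whose control cultures received the solvent DMSO and whose treated cultures received VS-5584 (SB2343), which blocks both mTOR and PI3 kinase. Its dose is 123 nM in the labels and 125 nM in the design text, where it is described as below the drug's IC50 in these cells. All cultures were harvested at 24 h, and 1 array was run for each of 2 control and 2 treated samples. Everything comes from a single line. The samples are called biological replicates in the titles without saying how the cultures were separated, so p-values measure only the spread between these samples.

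The nuclear pore is a channel through the nuclear envelope built from stacked rings of nucleoporins, with flexible filaments of phenylalanine-glycine (FG) repeats in the middle, filaments on the cytoplasmic face and a basket on the nuclear face. Importins and exportins bind cargo and the FG repeats, and the small GTPase Ran tells them on which side of the envelope they are, since Ran is loaded with GTP in the nucleus and hydrolyses it in the cytoplasm. Pores are inserted during interphase growth of the nucleus and rebuilt after mitosis, so dividing cells must keep making their parts, and XPO1 is itself a drug target in myeloma.

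Treated replicate 2 stood apart from the other 3 arrays. Its log2 intensities correlated with theirs at r = 0.980 to 0.985 across probe sets, against 0.994 to 0.996 at best for the others. Its upper quartile of intensity was 106, against 115 to 118 on the other 3 arrays, so its brighter probe sets read lower. Its median tested gene was at -0.14 log2 units from the control mean, against -0.0022 on treated replicate 1. The SD of the log2 difference between replicates over all tested genes was 0.25 for the treated and 0.17 for the control pair. As a check of the label, all 9 plasma cell markers measured were bright enough to be tested. Of other cell types, 0 of 4 T cell, 0 of 4 monocyte, 1 of 3 B cell (PAX5) and 2 of 4 stromal (COL1A1 and COL1A2) markers were bright enough. The 4 epithelial markers had a summed intensity of 171 and 199 on the control arrays and of 177 and 282 on treated replicates 1 and 2, and of these KRT18 alone passed the brightness filter. The summed intensity of the plasma cell markers was 11831 to 12068 in control and 12827 and 13728 on treated replicates 1 and 2. Of the 9 genes 4 were lower on average, and without JCHAIN the sum was 8478 to 8971 in control cells, 10012 on treated replicate 1 and 8997 on treated replicate 2. That of 4 stromal markers was 214 to 215 in control and 229 to 232 in treated cells. The part of these markers in the results was not tested.

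Most pore and transport genes stood lower after VS-5584, by small amounts. Of the 51 tested members 48 were lower on average, against 62.7% of all tested genes. The members' median was -0.32 on the log2 scale, or 1.25-fold lower, where the median of all tested genes was -0.06. In RNA from whole cultures, fewer cells of a kind and less RNA per cell cannot be told apart. Both treated arrays lay below both controls for 43 members (84.3%), against 29.2% of all tested genes, and 1 member, TPR, had both above, against 14.7%. Limma called 0 members at an adjusted p under 0.05, and 0% of all tested genes. At an unadjusted p under 0.05 it gave 22 members as lower, against 8.93% of all tested genes, and 0 as higher, against 1.49%. An ordinary two-sample test also called 0 members, and 0% of all tested genes.

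For 48 of the 51 members, treated replicate 2 read lower than treated replicate 1. The median member was at -0.17 from the control mean on treated replicate 1 and at -0.52 on treated replicate 2. Without treated replicate 2, 44 members lay below both controls on the remaining treated array, against 34.6% of all tested genes. Without treated replicate 1 the treated arm is a single array, the one that stands apart, and its spread is taken to be that of the control pair. The median was then -0.52 and limma called 40 members as lower, against 21.6% of all tested genes, and 0 as higher, against 2.29%. With the 60% dimmest genes left out, 41 of 48 members lay below both controls, against 36.7% of the genes then tested. After cyclic loess, which evens out intensity-dependent differences between arrays and takes the median of all tested genes to 0.0040, the median member was at -0.22, and 41 members still lay below both controls, against 22.8% of all tested genes.

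**Figure D1:**
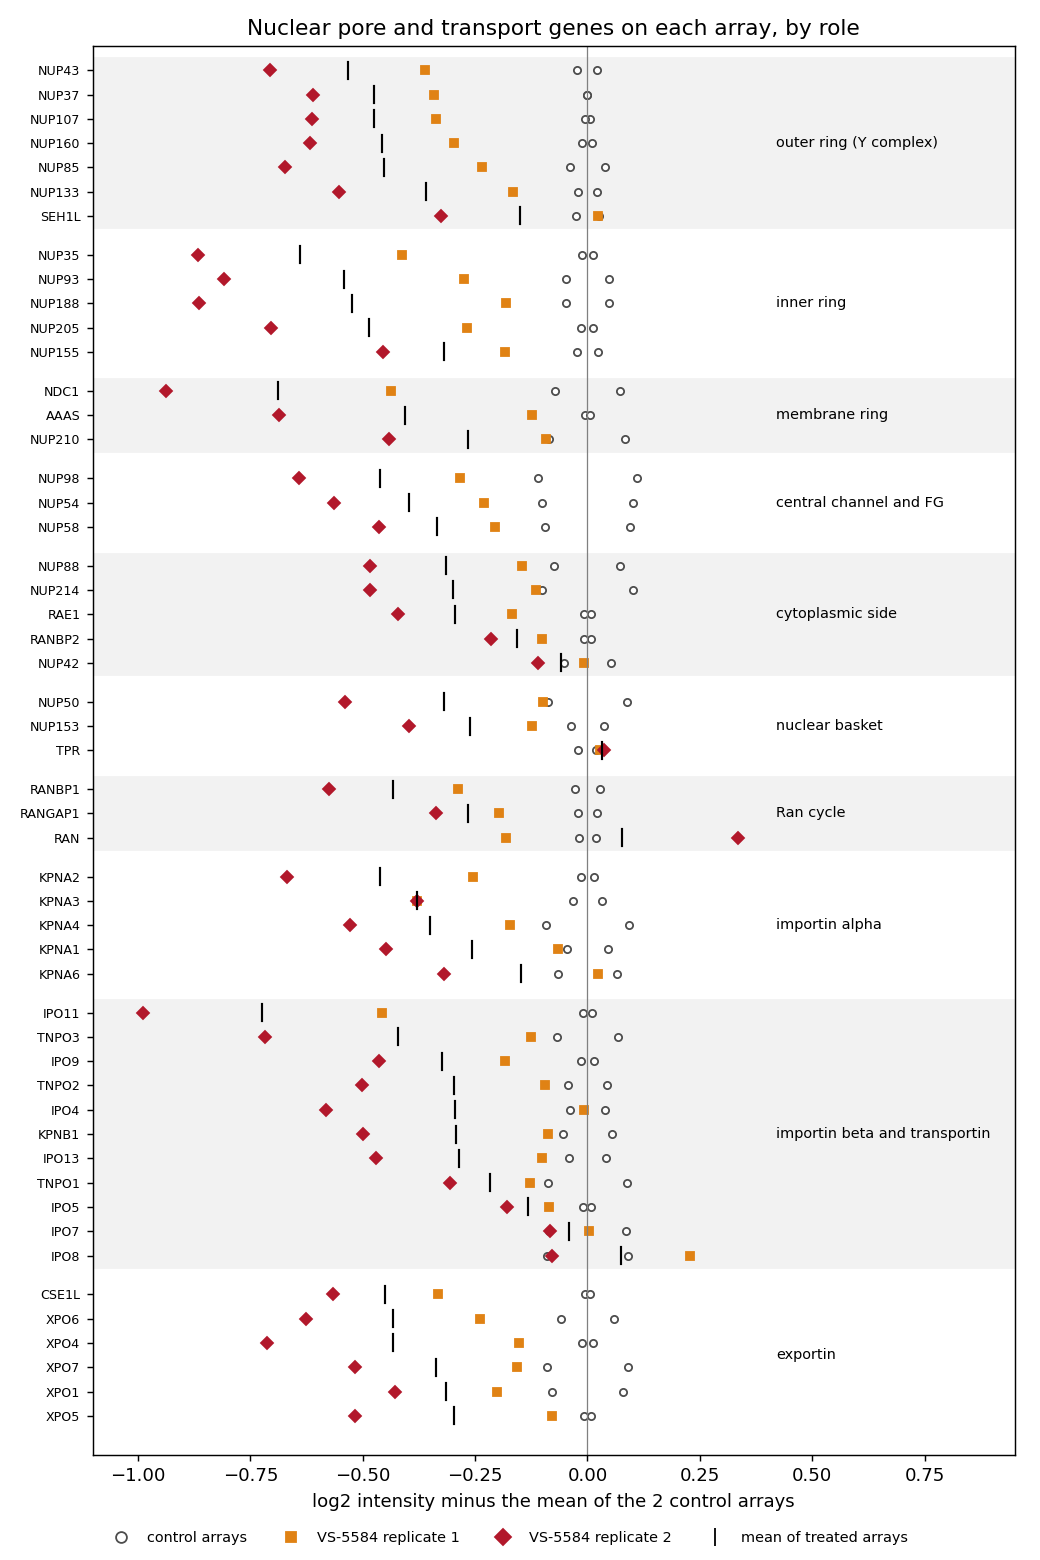
Log2 intensity of each of the 51 tested members on each array, minus the mean of the 2 control arrays (x axis), with members grouped by role (y axis). Circles are control arrays, squares treated replicate 1, diamonds treated replicate 2 and bars the treated mean; squares and diamonds sit left of both circles for 43 members, and TPR, RAN and IPO8 have their bars right of 0.

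**Figure D2:**
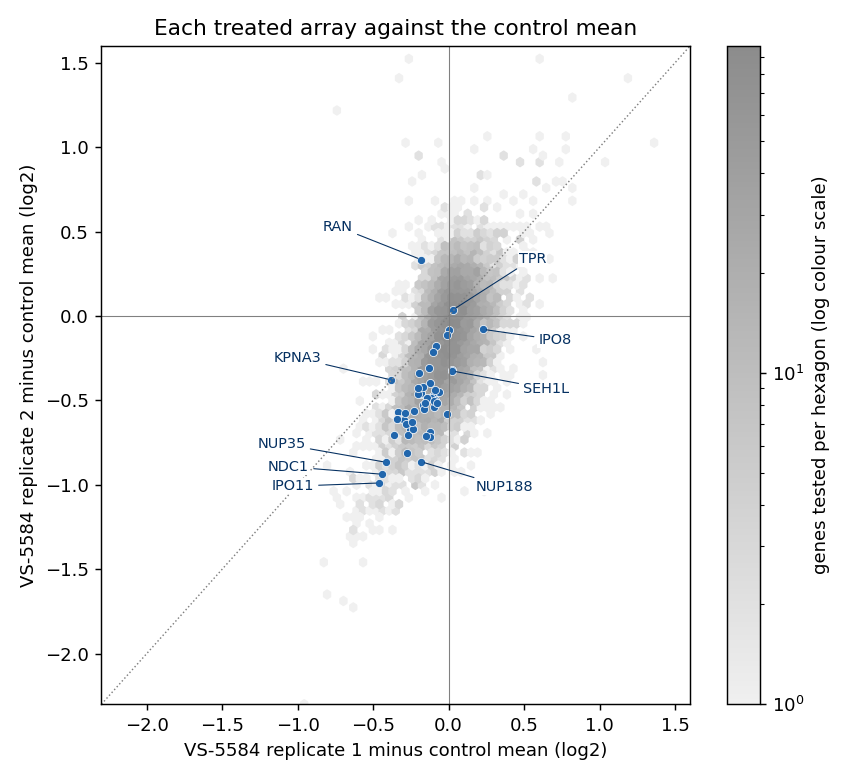
Difference of each gene from the control mean on treated replicate 1 (x axis, log2) and treated replicate 2 (y axis, log2). Grey hexagons count the 11026 tested genes on a log colour scale, blue points are the 51 tested members and the dotted line marks equal differences; 48 members lie below that line.

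IPO11, NDC1 and NUP35 had the 3 largest differences among the members, and the promoter windows of these genes are shown beside that of TPR, which stayed level on both treated arrays. The windows run from 250 bases before to 50 after the annotated start (RefSeq, GRCh38.p14), with the first of 2 listed windows for IPO11. They lie at chr5:62412513-62412812 on the plus strand (IPO11), chr1:53838247-53838546 on the minus strand (NDC1), chr2:183124193-183124492 on the plus strand (NUP35) and chr1:186375204-186375503 on the minus strand (TPR). Capitals mark every match, on either strand, to 6 short motifs: TTTGAA (the cell cycle homology element, CHR), CCAAT (the NF-Y box), CCGGAAGT (an ETS site), CACGTG (the E-box that MYC can bind), and TTTGGCGC and TTTCCCGC (E2F sites). None of the motifs contains another.
IPO11: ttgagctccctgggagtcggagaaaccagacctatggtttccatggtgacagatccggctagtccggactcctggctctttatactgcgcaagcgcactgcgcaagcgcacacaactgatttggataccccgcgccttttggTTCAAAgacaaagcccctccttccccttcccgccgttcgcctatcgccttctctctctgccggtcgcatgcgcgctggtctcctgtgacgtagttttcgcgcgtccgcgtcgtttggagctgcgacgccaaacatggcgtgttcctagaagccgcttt
NDC1: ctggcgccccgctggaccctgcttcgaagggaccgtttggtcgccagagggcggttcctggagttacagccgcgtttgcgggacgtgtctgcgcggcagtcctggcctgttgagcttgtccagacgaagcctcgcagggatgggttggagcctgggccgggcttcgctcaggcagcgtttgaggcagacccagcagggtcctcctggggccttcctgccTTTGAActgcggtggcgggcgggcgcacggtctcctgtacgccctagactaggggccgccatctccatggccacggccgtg
NUP35: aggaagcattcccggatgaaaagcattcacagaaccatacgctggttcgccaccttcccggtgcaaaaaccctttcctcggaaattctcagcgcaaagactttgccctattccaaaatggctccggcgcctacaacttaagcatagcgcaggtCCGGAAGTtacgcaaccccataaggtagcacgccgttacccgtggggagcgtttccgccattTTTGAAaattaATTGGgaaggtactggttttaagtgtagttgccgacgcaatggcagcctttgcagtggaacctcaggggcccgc
TPR: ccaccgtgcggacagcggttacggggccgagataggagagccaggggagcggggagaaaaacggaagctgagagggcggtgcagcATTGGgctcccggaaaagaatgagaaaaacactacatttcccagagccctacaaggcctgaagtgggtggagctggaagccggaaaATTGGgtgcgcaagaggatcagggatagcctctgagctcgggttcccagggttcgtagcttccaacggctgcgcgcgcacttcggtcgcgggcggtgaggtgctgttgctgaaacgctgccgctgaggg
The capitals are TTTGAA, read on the other strand as TTCAAA, in IPO11 and TTTGAA in NDC1, ending 103 and 26 bases before the start. NUP35 has CCGGAAGT, TTTGAA and CCAAT (as ATTGG), ending 90, 30 and 20 bases before the start, and TPR has CCAAT at 2 places. The second IPO11 window held no match.

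Among members, TTTGAA was found in 16 of 61 windows (26.2%), belonging to 14 of the 48 members with a window, whereas 15.2% of all 35116 windows hold it. CCAAT was in 45.9% of member windows against 34.6% of all, CCGGAAGT in 11.5% against 4.14%, and CACGTG in 13.1% against 7.26%. The E2F motifs TTTGGCGC and TTTCCCGC were in 1.64% and 0% of member windows, against 0.652% and 1.63% of all. The 14 tested members with TTTGAA, CSE1L, IPO11, IPO7, KPNA2, NDC1, NUP153, NUP205, NUP35, NUP37, NUP50, NUP93, NUP98, RAN and RANGAP1, had a median of -0.46, against -0.31 for the 32 tested members with a window and no match. Over all tested genes with a window the medians were -0.11 with the motif and -0.07 without it. Gaps among members were also seen for CCAAT and CCGGAAGT, but the motif groups share members. CSE1L, KPNA2, NUP205, NUP35, NUP37, NUP93 and NUP98 hold both TTTGAA and CCAAT, and NUP35 also holds CCGGAAGT. Whether the gaps are separate was not tested. Member medians with and without a match were -0.43 and -0.30 for CCAAT and -0.42 and -0.31 for CCGGAAGT. For CACGTG they were -0.31 and -0.33. Set against tested genes only, 30.4% of the 46 tested members with a window held TTTGAA, against 13.5% of the 8883 tested genes with one. For CCAAT the shares were 45.7% and 43.1%, for CCGGAAGT 15.2% and 10.0%, and for CACGTG 17.4% and 12.7%. A match describes letters only, and IPO7 and RAN hold TTTGAA although their groups overlapped.

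The inner and outer rings of the pore had the lowest medians among the roles, on average and after cyclic loess. In the outer ring, or Y complex, which also helps rebuild pores on chromosomes after mitosis, 7 of 7 tested genes were lower on average and 6 of them did not overlap. Over all tested genes 62.7% were lower on average and 29.2% had both treated arrays below both controls. Over all tested members the latter share was 84.3%, and the counts of each role below stand beside these shares. The outer ring's median was -0.46. NUP107, a stem subunit of the Y complex, read log2 intensities of 9.22 and 9.22 on control replicates 1 and 2 and 8.88 and 8.61 on treated replicates 1 and 2. Both treated values lay below the control pair, and the difference was -0.48 ± 0.14 (SE), or 1.39-fold lower, with limma adjusted p = 0.365. NUP43, a subunit of the short arm, read 8.24 and 8.20 in control and 7.86 and 7.52 in treated cells, a difference of -0.53 ± 0.15 (limma adjusted p = 0.323). NUP37, which binds NUP160, read 8.66 and 8.66 against 8.32 and 8.05, a difference of -0.48 ± 0.14 (limma adjusted p = 0.359). In both genes the control arrays nearly coincided and neither treated array reached them. NUP160, NUP85 and NUP133, further subunits of the complex, differed by -0.46, -0.45 and -0.36.

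SEH1L was the exception in the outer ring. Its protein serves both the Y complex and GATOR2, the complex that reports amino acid supply to mTORC1. It read 9.87 and 9.82 in control and 9.87 and 9.52 in treated cells. Treated replicate 1 lay between the controls, just under the upper one, so the groups overlapped, and the difference of -0.15 ± 0.15 (SE; limma adjusted p = 0.732) lay on treated replicate 2.

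The inner ring, which lines the channel and anchors the FG proteins, had 5 of 5 genes with both treated arrays below both controls and a median of -0.52, or 1.44-fold lower. NUP35, which ties the ring to the membrane, read 7.70 and 7.73 in control and 7.30 and 6.85 in treated cells, a difference of -0.64 ± 0.17 (SE; limma adjusted p = 0.307). NUP93, the linker of the ring, read 9.62 and 9.72 against 9.39 and 8.86, a difference of -0.54 ± 0.18 (limma adjusted p = 0.381). The large scaffold proteins NUP188 and NUP205 are paralogs. NUP188 was at -0.18 in the first treated sample and -0.86 in the second relative to the controls, the widest split between the treated arrays in this ring. NUP205 differed by -0.27 and -0.70, and NUP155, another large subunit, by -0.32 on average.

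In the membrane ring all 3 genes lay below both controls on both treated arrays, with a median of -0.40. NDC1, a transmembrane protein needed to insert pores, read 9.05 and 9.20 in control and 8.69 and 8.19 in treated cells. Its difference was -0.69 ± 0.18 (SE), or 1.61-fold lower, with limma adjusted p = 0.305. AAAS, which encodes the NDC1-bound protein ALADIN, read 8.52 and 8.53 against 8.40 and 7.84, a difference of -0.40 ± 0.18 (limma adjusted p = 0.481) that was mostly on treated replicate 2. NUP210, a transmembrane protein with most of its mass between the membranes of the envelope, read 6.66 and 6.83 against 6.65 and 6.31, so that its treated replicate 1 lay just below the lower control.

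The tested FG proteins of the central channel, NUP98, NUP54 and NUP58, help form the permeability barrier, and all 3 lay below both controls on both treated arrays. NUP98 read 8.99 and 9.21 in control and 8.82 and 8.46 in treated cells, a difference of -0.46 ± 0.16 (SE; limma adjusted p = 0.402). This transcript also encodes NUP96, a Y complex subunit cut from the same precursor, so its signal belongs to both structures. NUP54 read 8.24 and 8.04 against 7.91 and 7.58, a difference of -0.40 ± 0.16 (limma adjusted p = 0.440). The gap between its controls was wider than that from the lower control to treated replicate 1. NUP58 differed by -0.33.

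On the cytoplasmic side, where export complexes are taken apart, the differences were smaller, with a median of -0.29 over 5 genes, of which 4 did not overlap. NUP88, the partner that holds NUP214 in place, read 9.73 and 9.58 in control and 9.51 and 9.17 in treated cells, a difference of -0.31 ± 0.15 (SE; limma adjusted p = 0.514). RAE1, which binds NUP98 and acts in mRNA export, read 8.52 and 8.53 against 8.36 and 8.10, a difference of -0.29 ± 0.14 (limma adjusted p = 0.504). NUP214 differed by -0.30. RANBP2, the giant filament protein that docks RANGAP1 and acts as a SUMO ligase, read 9.45 and 9.43 against 9.34 and 9.23. Both treated values lay below the controls but by little, a difference of -0.16 ± 0.13 (limma adjusted p = 0.682), and the RGPD genes are near copies of RANBP2 that can share its signal. NUP42, which works with the mRNA export factor GLE1, read 7.28 and 7.17 against 7.22 and 7.12, with overlapping groups.

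The nuclear basket was divided. NUP153, which anchors the basket, read 10.09 and 10.02 in control and 9.93 and 9.66 in treated cells, a difference of -0.26 ± 0.14 (SE; limma adjusted p = 0.552). NUP50, which helps release cargo from importin alpha, read 6.81 and 6.64 against 6.63 and 6.19, a difference of -0.32 ± 0.17 (limma adjusted p = 0.542). TPR, the long coiled-coil protein that forms the basket's struts, read 10.81 and 10.77 against 10.82 and 10.83. Its treated values lay just above both controls, a difference of 0.032 ± 0.13 (limma adjusted p = 0.940), and it was 0.11 after cyclic loess.

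In the Ran cycle, the regulators RANBP1 and RANGAP1 stood lower and RAN itself could not be settled. The regulator RCC1 has no probe set of its own and is not a member. RANBP1, which works with RANGAP1 to release Ran from export complexes, read 9.31 and 9.36 in control and 9.05 and 8.76 in treated cells, a difference of -0.43 ± 0.15 (SE; limma adjusted p = 0.390). RANGAP1, which makes Ran hydrolyse GTP in the cytoplasm, read 6.42 and 6.38 against 6.20 and 6.06, a difference of -0.27 ± 0.13 (limma adjusted p = 0.519). For both genes the treated pair lay wholly below the control pair.

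RAN, the GTPase that gives transport its direction, has 2 probe sets that disagreed. The brighter one, which represents the gene by the rule of highest mean, read 11.09 and 11.13 in control and 10.93 and 11.45 in treated cells. Treated replicate 1 was thus the lowest of the 4 arrays and treated replicate 2 the highest, with a difference of 0.08 ± 0.18 (SE; limma adjusted p = 0.885). The dimmer probe set read 9.94 and 9.88 against 9.85 and 9.76, with both treated values below both controls and a difference of -0.10. With the mean of both probe sets the difference was -0.012. RAN has several processed pseudogenes in RefSeq that can share its signal, and which probe set follows the gene was not tested.

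**Figure D3:**
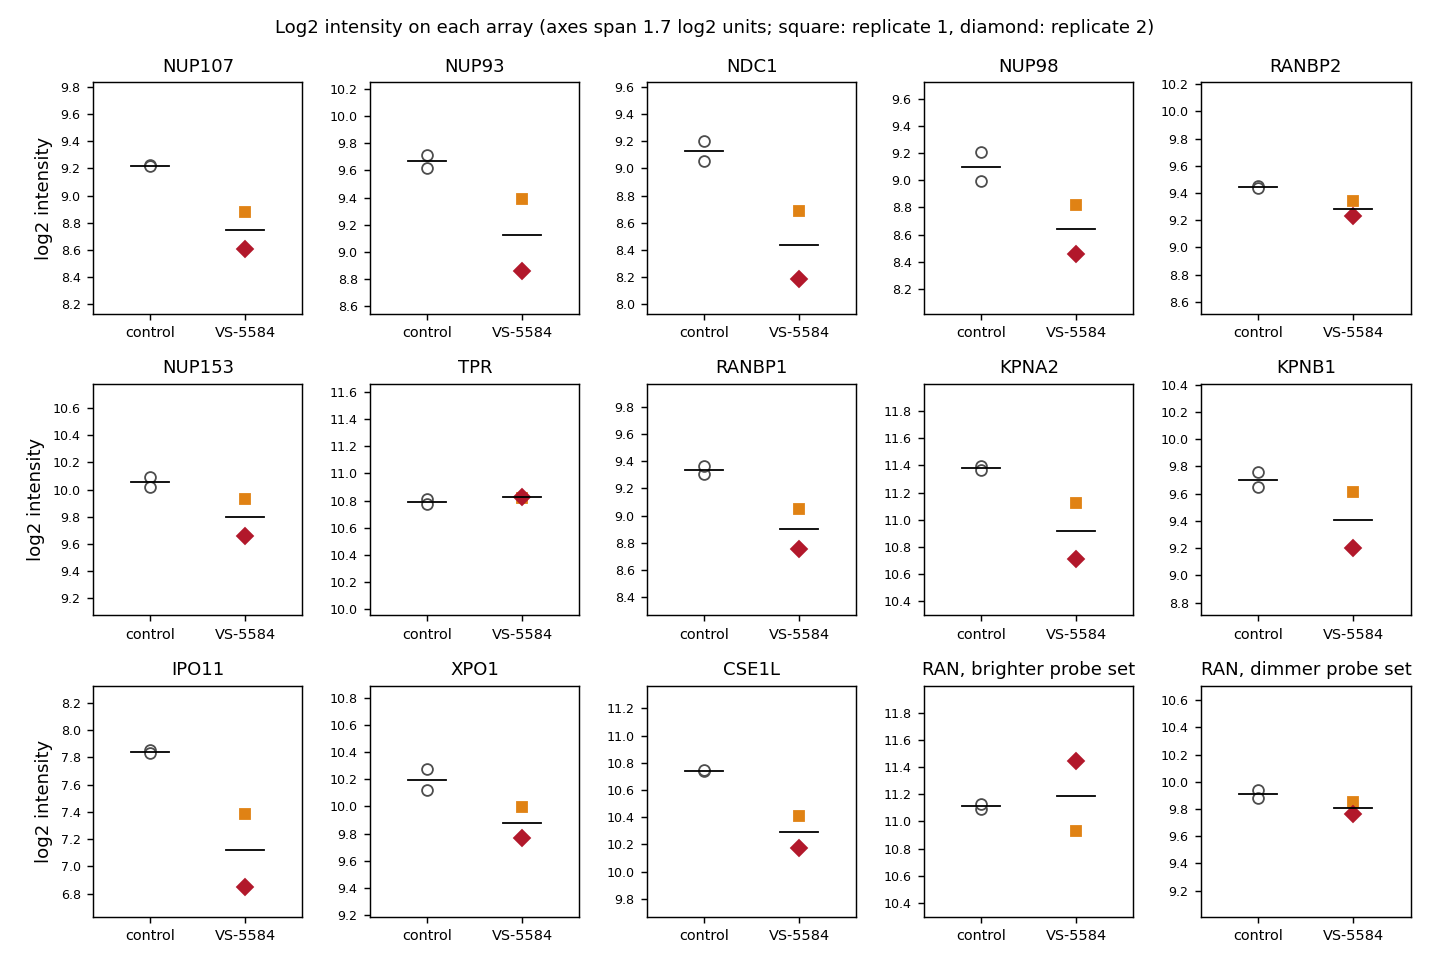
Log2 intensity (y axes, each spanning the same range) of 13 members and of both RAN probe sets in control and treated cells (x axes). Circles are control arrays, squares treated replicate 1, diamonds treated replicate 2 and lines group means; TPR is level, most other panels are lower on both treated arrays, and the brighter RAN probe set is the one panel in which the treated arrays lie on opposite sides of the controls.

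The importin alpha adaptors, which read the classical nuclear localisation signal, were lower on average in 5 of 5 tested genes, with a median of -0.35. KPNA2 read 11.39 and 11.37 in control and 11.12 and 10.71 in treated cells, a difference of -0.46 ± 0.16 (SE; limma adjusted p = 0.401). Its second probe set gave -0.44, but KPNA2 also has pseudogenes that could share both signals. KPNA3 read 8.96 and 9.03 against 8.61 and 8.61, a difference of -0.38 ± 0.13 (limma adjusted p = 0.400). It was the member whose treated arrays agreed most closely, at -0.38 from the control mean on each, where KPNA2 was at -0.26 and -0.67. KPNA4, the close relative of KPNA3, and KPNA1 differed by -0.35 and -0.26. KPNA6 read 6.81 and 6.95 against 6.90 and 6.56, with overlapping groups, and without treated replicate 2 its difference was 0.024.

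Importin beta and its relatives carry import cargo through the pore. Their differences spanned the widest range of any role, from -0.72 to 0.07 over 11 genes with a median of -0.29. For 8 of the 11 both treated arrays lay below both controls. KPNB1, importin beta itself, read 9.76 and 9.65 in control and 9.62 and 9.20 in treated cells, a difference of -0.29 ± 0.16 (SE; limma adjusted p = 0.552). IPO11, which imports ubiquitin-conjugating enzymes, read 7.85 and 7.83 against 7.38 and 6.85. Both treated arrays were well below controls that nearly coincided, and the difference of -0.72 ± 0.18, or 1.65-fold lower, was the largest of any member (limma adjusted p = 0.285). IPO9, an importer of core histones, read 8.65 and 8.68 against 8.48 and 8.20, a difference of -0.32 ± 0.14 (limma adjusted p = 0.480). TNPO3, which imports the SR splicing factors, differed by -0.42, made up of -0.12 in the first treated sample and -0.72 in the second.

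Other importers of this class differed little or unevenly. IPO5 and IPO7, which bring ribosomal proteins into the nucleus, differed by -0.13 and -0.04, and IPO7 read 10.28 and 10.11 in control and 10.20 and 10.11 in treated cells. IPO8, the closest relative of IPO7, read 8.86 and 8.68 against 9.00 and 8.69, a difference of 0.07 ± 0.15 (SE; limma adjusted p = 0.870). For IPO7 and IPO8 the groups overlapped and the sign of the difference changed with the array left out. IPO4, another importer of core histones, was at -0.0076 from the control mean on treated replicate 1 and at -0.58 on treated replicate 2. TNPO1 and TNPO2, paralogs that import RNA-binding proteins such as hnRNP A proteins, and IPO13, which works in both directions, differed by -0.22, -0.30 and -0.29.

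The exportins were lower in all 6 tested genes, each with both treated arrays below both controls, and had a median of -0.38. XPO1, the exporter of proteins with a leucine-rich export signal, read 10.27 and 10.12 in control and 9.99 and 9.77 in treated cells, a difference of -0.31 ± 0.14 (SE; limma adjusted p = 0.482). CSE1L, which returns importin alpha to the cytoplasm, read 10.74 and 10.75 against 10.41 and 10.18. Its controls nearly coincided, and the difference was -0.45 ± 0.14, or 1.37-fold lower (limma adjusted p = 0.369). XPO6, the exporter of actin, read 9.78 and 9.90 against 9.60 and 9.21, a difference of -0.43 ± 0.16 (limma adjusted p = 0.422). XPO4, XPO7 and XPO5, the last of which exports microRNA precursors, differed by -0.43, -0.34 and -0.30, each nearer to the controls on treated replicate 1 than on treated replicate 2.

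**Figure D4:**
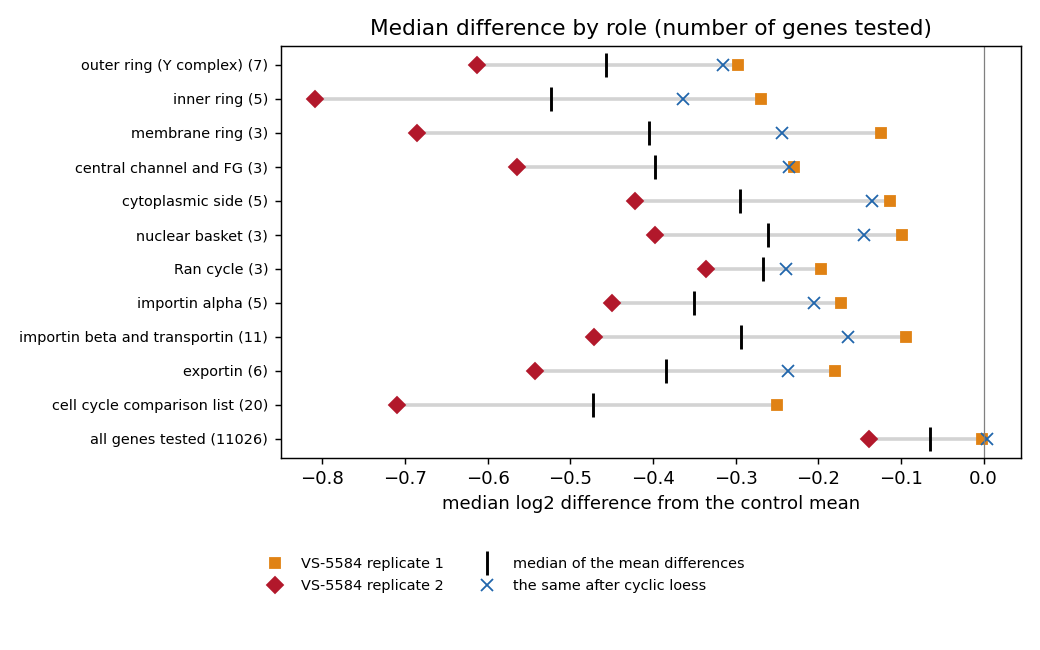
Median log2 difference from the control mean (x axis) for each role, for a comparison list of 20 cell cycle genes and for all tested genes (y axis, number of genes in brackets). Squares are treated replicate 1, diamonds treated replicate 2, bars the median of the mean differences and crosses the same after cyclic loess; each role lies left of all tested genes on both treated arrays, and the inner ring reaches -0.81 on treated replicate 2.

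Each role group had a median below that of all tested genes on both treated arrays. On treated replicate 1 the role medians ran from -0.30 in the outer ring to -0.09 among importin beta relatives, and on treated replicate 2 from -0.81 in the inner ring to -0.34 in the Ran cycle. After cyclic loess they ran from -0.36 in the inner ring to -0.13 on the cytoplasmic side. There 2 of 5 genes still had both treated arrays below both controls, against 22.8% of all tested genes. The 20 cell cycle genes of a comparison list had a median of -0.47, with -0.25 and -0.71 on treated replicates 1 and 2. All 20 were lower on average, against 62.7% of all tested genes. For 18 of them both treated arrays lay below both controls, against 84.3% of tested members and 29.2% of all tested genes. The cell cycle genes come from the same arrays, so their values are given side by side and their part in the members' values was not tested.

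Neighbouring genes of the pathway outside the rule were read from the same fit, and no test compared them with the members. Their counts stand beside 62.7% of all tested genes lower on average and 29.2% with both treated arrays below both controls. Of 10 other transport factors, 9 were lower on average and 2 lay below both controls on both treated arrays, with a median of -0.14. The genes of that list with the smallest p were RCC2, a relative of RCC1, at -0.50 and XPOT, the exporter of tRNA, at -0.16. Of 15 mRNA export genes 12 were lower on average and 6 without overlap, with a median of -0.15. DDX39A, an RNA helicase of mRNA export, differed by -0.72 ± 0.19 (SE; limma adjusted p = 0.307) and DDX19A by -0.45. Of 14 tested genes of the nuclear lamina and envelope 11 were lower and 5 without overlap, with a median of -0.15, and LMNB1, a B-type lamin, and TMPO, a lamina-binding protein, differed by -0.41 and -0.39. Of 5 other pore proteins listed 2 were tested, and both lay below both controls on both treated arrays, with a median of -0.35. SEC13, shared like SEH1L by the Y complex and GATOR2, differed by -0.49 ± 0.22 (SE; limma adjusted p = 0.480), and GLE1 by -0.21. Limma called 0 genes in each of these lists.

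The 5 members too dim to be tested were KPNA5, KPNA7, NUP62CL, NUP210L and the pseudogene NUP210P1. KPNA5, an importin alpha, read 5.60 and 5.64 in control and 5.50 and 5.21 in treated cells, just under the filter, and was the 1 of the 5 whose treated arrays both lay below both controls. The others overlapped and differed by 0.03 to 0.07. The filter fell between the group means of KPNA5 and of 0 of the 51 tested members.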

How the data were processed

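RNA of 4 OPM2 samples, 2 per group, was measured on one-colour arrays. In the table the authors deposited, each of 28869 probe sets has a linear intensity for every array. Per the submitters' processing notes, RMA was used. Software, background correction and any added constant are not given in the sources used here, and an added constant would make fold changes of dim genes too small. The number of arrays limits the precision, and detection calls were not used.

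Intensities were turned into log2 values without further normalization. The platform annotation gave 19310 probe sets with 1 gene, 1752 with several and 7807 with none listed. Symbols were updated through RefSeq (GRCh38.p14) for 19279 and kept for 31. A gene with several probe sets was represented by the brightest. The 40% of genes with the lowest mean (below an intensity of 48.9) were left out. Groups came from the sample titles. The comparison used lmFit and eBayes of limma 3.58.1 under R 4.3.3, two-sided, with Benjamini-Hochberg adjustment over all 11026 genes and a threshold of 0.05. The SE is that of this model. Code was tested on simulated data.

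Any member may be named. Full statistics were given for a fixed panel, for the 2 members of each role with the smallest p and for the 3 largest differences each way, and other lists give the 2 genes with the smallest p. Members, roles, lists, motifs and alternatives were chosen with earlier results of these data known. RCC1 and NUP62, of the panel, share their probe sets with other genes and are not members. Figures were drawn with matplotlib 3.10.9.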

Additional observations from a re-analysis of the deposited data

How the results depend on the processing

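The count of 43 members with both treated arrays below both controls was 41 to 44 under cyclic loess, median centring, no filter or a 60% filter on brightness, averaged probe sets and subtraction of 16 from every intensity, and 44 to 47 when 1 array was left out, where the share of all tested genes was 34.6% to 60.1%, against 29.2% with all 4 arrays. The counts are of 51 tested members, except for 44 of 56 with no filter and 41 of 48 with the 60% filter. Over the alternatives with all 4 arrays, the share of all genes tested ran from 21.4% with no filter to 36.7% with the 60% filter. The median difference of -0.32 ran from -0.37 to -0.22 over the same alternatives and from -0.52 to -0.17 with 1 array left out. Limma called 0 members in the fit of all 4 arrays, 1 (KPNA2) with an intensity trend, where 80 genes were called in all, and 0 to 40 with 1 array left out. The 40 were called without treated replicate 1, where 2636 genes were called in all. There the treated arm is 1 array, assumed to vary like the control pair, which alone gives the spread. With the replicate number as a block it called 7 members, all lower (IPO11, NDC1, NUP35, NUP43, NUP93, NUP188 and NUP205), and 432 genes (3.92%). The numbers are not known to pair the samples: there are 2 pairs, and deviations of same-numbered samples correlated at r = 0.16 across genes. Over all genes 19 were called after cyclic loess, 58 with the 60% filter, 2 after subtraction, 19 and 21 without control replicate 1 or 2, and 2 without treated replicate 2. The sign turned after cyclic loess for IPO7 (0.0657) and NUP42 (0.0835), and with averaged probe sets for RAN (-0.012). With 1 array left out, differences ran from -0.12 to 0.0447 for IPO7, -0.0788 to 0.23 for IPO8, -0.32 to 0.0237 for KPNA6, -0.18 to 0.33 for RAN and -0.33 to 0.0241 for SEH1L. The cause was not tested. Signal over background was not analysed here, so no detection limit is given.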

Other observations

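RCC1, the exchange factor that loads Ran with GTP, shares its probe set with the RNA gene SNHG3. That probe set read log2 intensities of 6.61 and 6.85 in control and 6.74 and 6.25 in treated cells, with overlapping groups and a difference of -0.23. NUP62, a further FG protein of the central channel, shares its probe set with IL4I1. It read 6.16 and 6.24 against 6.14 and 5.97, with both treated arrays below both controls and a difference of -0.14.

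Besides its own probe set, RANBP2 is listed with its RGPD relatives on 8 probe sets that each carry 8 genes. Their differences ran from -0.03 to 0.03, against -0.16 for the probe set of RANBP2 alone. No test was run on these shared probe sets.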
